A study of Drosophila melanogaster with 2 samples.

Results

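The elements 412, mdg1, blood, 297 and 176 of Drosophila melanogaster are listed together as LTR retrotransposons with piRNAs in both compartments of the ovary, the germline and the follicle cells around it. They were found by their names in the deposited piRNA tables, in which they are 5 of 1364 features named in either library. All 5 were present in both libraries. Whole ovaries were dissected by hand from females 3 to 5 days old, and RNAs of 18 to 30 nt were sequenced. The study compared peloPB60/1 ovaries, in which the pelo allele PB60 stands over the pelo allele 1, with pelo1/+ ovaries, which carry allele 1 over a normal copy. Allele 1 is thus shared by both genotypes, and pelo encodes a factor that rescues stalled ribosomes. Each genotype is 1 library, the labels do not give the number of females pooled, and every difference below is a difference between 2 libraries without a replicate check.

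LTR retrotransposons copy themselves through RNA and reverse transcription, as retroviruses do. In fly gonads they are held down by piRNAs, small RNAs that lead Piwi-family proteins to transposon transcripts. Germ cells carry Piwi, Aubergine and Ago3, of which the last pair amplifies piRNAs by cutting sense and antisense transcripts in turn, whereas follicle cells carry Piwi alone. An element with piRNAs in both compartments therefore draws its reads from both sources, and a count from a whole ovary adds them up. Of the 5 elements, 412, mdg1 and blood belong to the mdg1 lineage of Ty3/gypsy-type elements. 412 is known for transcripts in the somatic precursors of the embryonic gonad, mdg1 was among the first mobile elements cloned from flies, and blood was found as the insertion behind an eye colour allele. 297 belongs to the gypsy lineage, whose members include env-bearing elements. The tables do not say what element the name 176 stands for, and it is given as listed.

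The piRNA tables held 4872519 reads in peloPB60/1 and 5229331 in pelo1/+, and the miRNA tables held 1999224 and 1819781 reads. A count of 0 allows up to 3 counts, or 0.616 CPM in the piRNA table of peloPB60/1 and 0.574 CPM in that of pelo1/+ (CPM, reads per 1000000 reads of the table). All 5 elements lay far above this. The 95% intervals below cover counting error only, since each genotype is 1 library. They take each read as an independent count, although reads carried no molecular identifiers. The ovary label was read against listed miRNAs of its cell types. All 3 follicle cell miRNAs (miR-989, miR-318, miR-994) and all 3 germline miRNAs (miR-184, bantam, miR-7) were found in both libraries. The 2 muscle and 6 testis-cluster miRNAs listed were found in both as well, so presence alone does not tell tissues apart.

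In peloPB60/1 ovaries 412 and mdg1 took larger shares of the piRNA reads than in pelo1/+ ovaries, 297 took a smaller share by the same factor as 412 gained, 176 took a moderately larger share and blood was nearly level. Together the 5 elements held 6.50% of the piRNA reads in peloPB60/1 (95% Wilson interval 6.47 to 6.52) and 5.68% in pelo1/+ (5.66 to 5.70). The pooled share was thus 1.14-fold larger (0.970 of the pelo1/+ value with the miRNA total as the divisor), which joins 4 elements that were higher and 1 that was lower. Those 4 held 5.51% of the reads in peloPB60/1 and 4.23% in pelo1/+, a gain of 1.28 percentage points. Against it stood a loss of 0.466 percentage points for 297.

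412 had 103902 reads in peloPB60/1 and 75739 in pelo1/+, which is 21324 and 14484 CPM. Its share was 2.13% in peloPB60/1 and 1.45% in pelo1/+, a 1.47-fold difference (log2 ratio 0.56, 95% interval 0.54 to 0.57). mdg1 had 61237 reads in peloPB60/1 and 45332 in pelo1/+, or 12568 and 8669 CPM, a 1.45-fold difference (log2 ratio 0.54, 0.52 to 0.55). These 2 elements of the mdg1 lineage differed between the libraries to nearly the same degree. blood, of the same lineage, had 78828 reads in peloPB60/1 and 79865 in pelo1/+. Scaled to the tables this was 16178 and 15272 CPM, with a log2 ratio of 0.08 (0.07 to 0.10). Its raw count was thus lower in peloPB60/1 and its share slightly higher, because the table of peloPB60/1 is the smaller one.

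297 had 48123 reads in peloPB60/1 and 76041 in pelo1/+, or 9876 and 14541 CPM. Its share was 0.988% in peloPB60/1 and 1.45% in pelo1/+, 1.47-fold lower (log2 ratio -0.56, 95% interval -0.57 to -0.54). 297 was the only one of the 5 whose share of the piRNA table was smaller in peloPB60/1. 176 was the scarcest of the 5 in both libraries, with 24445 reads in peloPB60/1 and 20093 in pelo1/+, or 5017 and 3842 CPM. Its log2 ratio was 0.38 (0.36 to 0.41), a 1.31-fold difference.

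**Figure D1:**
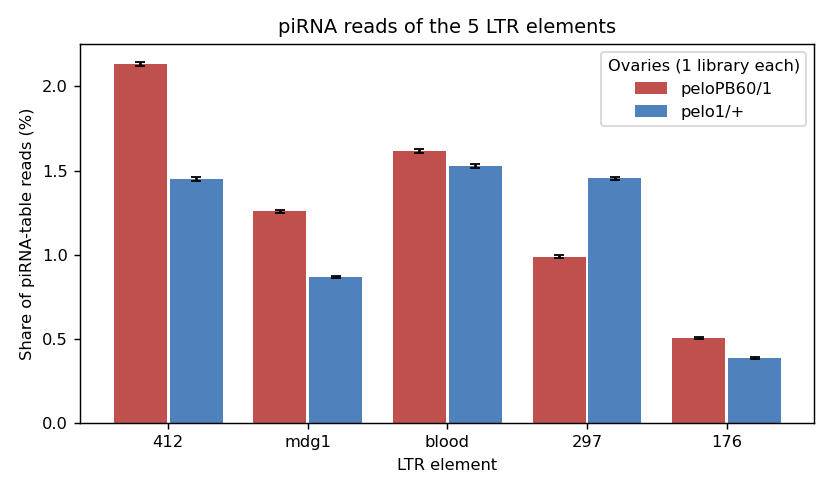
Share of the reads of the piRNA table (%, vertical axis) for each of the 5 elements in peloPB60/1 (red, left bar) and pelo1/+ (blue, right bar) ovaries, 1 library each, with 95% Wilson intervals of counting error. 412 stands at 2.13% and 1.45%, and 297 at 0.988% and 1.45%, so the bars of these 2 elements are level in pelo1/+ and far apart in peloPB60/1.

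None of the 5 elements reached a 2-fold difference, so 0 were called higher and 0 lower. Among all 438 features whose counts in the pair of libraries summed to 50 or more, 2.97% were called higher by at least 2-fold and 15.8% lower, with intervals that excluded no difference. Among the 94 features with at least 10000 summed counts, which include the 5 elements, 3.19% were higher and 6.38% lower. These 94 are the fitting background for elements of such abundance. A smaller size rule, 0.32 on the log2 scale, took in 4 of the 5, with 412, mdg1 and 176 higher and 297 lower. That split depended on the scaling too. It was 2 higher and 1 lower with both tables as the divisor, and 0 higher and 1 lower with the miRNA total. With upper quartiles or the miRNA total without miR-989 it was 4 higher and 0 lower. These scalings move all features by a common amount, and shares of all features at this size were not counted with them. With the piRNA total, at that size, 15.3% of the 438 features were higher and 37.9% lower, and of the 94 abundant features 31.9% were higher and 24.5% lower. A difference of that size was thus common among abundant features, and the 4 elements past it are no exception. The split of 13 higher and 69 lower features past 2-fold depended on the scaling. It was 17 and 47 with TMM factors, 33 and 36 with upper quartiles, 5 and 101 with the miRNA total, and 30 and 39 with the miRNA total without miR-989.

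The median log2 ratio of the 5 elements was 0.38, that of the 94 abundant features 0.12 and that of all 438 features -0.22. 412 had a higher log2 ratio than 90.6% of the 438 features and 84.0% of the 94. mdg1 stood above 89.7% and 81.9%, and 176 above 82.9% and 71.3%. blood stood above 66.7% of all features and 45.7% of the abundant ones. 297 stood above 29.2% and 13.8%. The 5 elements, which are themselves among the 94 and the 438, lay on both sides of 0. The 94 abundant features ran from -1.81 for invader6 to 1.24 for gypsy2. By rank blood stood near the middle of the 94, with 412 and mdg1 toward the upper end and 297 toward the lower.

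**Figure D2:**
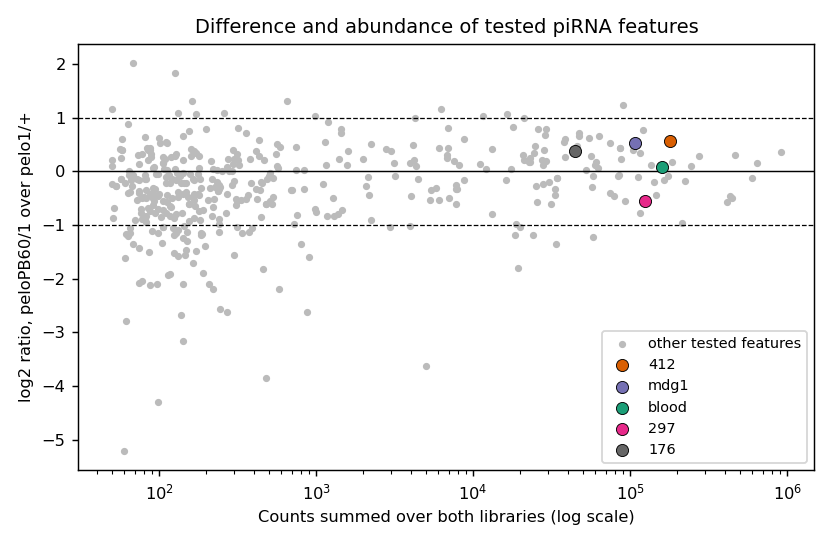
Log2 ratio of peloPB60/1 over pelo1/+ (vertical axis) against counts summed over both libraries (horizontal log axis) for 438 features with at least 50 counts. The 5 elements (large coloured points) lie between -0.56 for 297 and 0.56 for 412, inside the dashed lines that mark 2-fold, among the abundant features at the right.

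Ranks by read count show the same exchange. 412 was in place 10 of 1097 listed features in peloPB60/1, between TART and Rt1a, and in place 19 of 1127 in pelo1/+, between 297 and HeT-A. mdg1 was in place 22 in peloPB60/1 and 30 in pelo1/+. 297 was in place 28 in peloPB60/1, between jockey and G6, and in place 18 in pelo1/+. blood held places 14 and 16. 176 was in place 51 in peloPB60/1 and 50 in pelo1/+, so its share was larger and its rank 1 place lower in peloPB60/1.

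Reads of 2 elements within 1 library can be set against each other without any scaling between the libraries. In peloPB60/1 there were 2.16 reads of 412 per read of 297, against 0.996 in pelo1/+. In pelo1/+ these elements were neighbours in rank, and their shares of the reads of the 5 (25.5% for 412 and 25.6% for 297) had overlapping counting intervals. The ratio differed 2.17-fold between the libraries (log2 1.12, exact conditional 95% interval 1.09 to 1.14). mdg1 over 297 was 1.27 in peloPB60/1 and 0.596 in pelo1/+ (log2 difference 1.09, 1.07 to 1.12). These 2 of the 10 pairs were past 2-fold. The pair 297 over 176 was just under it, at 1.97 reads in peloPB60/1 and 3.78 in pelo1/+ (log2 difference -0.94, -0.97 to -0.91).

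By contrast 412 over mdg1 was 1.70 in peloPB60/1 and 1.67 in pelo1/+, with a log2 difference of 0.022 (7.2e-05 to 0.044). This was the smallest difference among the 10 pairs. blood lay between these and 297. Its reads per read of 297 were 1.64 in peloPB60/1 and 1.05 in pelo1/+, while 412 over blood was 1.32 in peloPB60/1 and 0.948 in pelo1/+. By read count, not corrected for length, the order of the 2 elements turned in 3 of the 10 pairs. These were 412 with blood, 412 with 297 and mdg1 with 297. All 10 intervals excluded 0, which with counts of this size happens at very small differences. As shares of the reads of the 5, 412 made up 32.8% in peloPB60/1 and 25.5% in pelo1/+, and 297 made up 15.2% and 25.6%. mdg1 made up 19.3% in peloPB60/1 and 15.3% in pelo1/+, blood 24.9% and 26.9%, and 176 made up 7.72% and 6.76%.

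**Figure D3:**
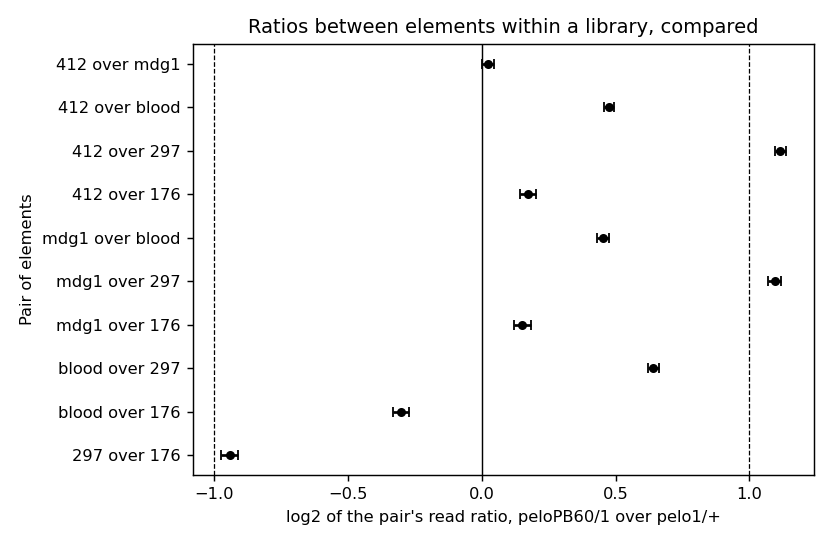
Difference between the libraries in the read ratio of each pair of elements (log2 of peloPB60/1 over pelo1/+, horizontal axis), with exact conditional 95% intervals. The ratios of 412 and of mdg1 to 297 lie past the dashed 2-fold line at 1.12 and 1.09, and 412 over mdg1 lies at 0.022.

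The direction of 4 elements was the same with each scaling tried. 412, mdg1 and 176 were above 0 and 297 below 0 whether counts were scaled to the piRNA total, to both tables, to TMM or median-of-ratios factors, to the upper quartile or to the miRNA total with or without miR-989. blood was above 0 in all of these but the miRNA total, where it had -0.15. 412 ran from 0.32 with the miRNA total to 0.91 with upper quartiles, and 297 from -0.80 to -0.20. No scaling brought an element to 2-fold. The scalings moved every feature by a common amount, from -0.24 with the miRNA total to 0.35 with upper quartiles, relative to the piRNA total.

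**Figure D4:**
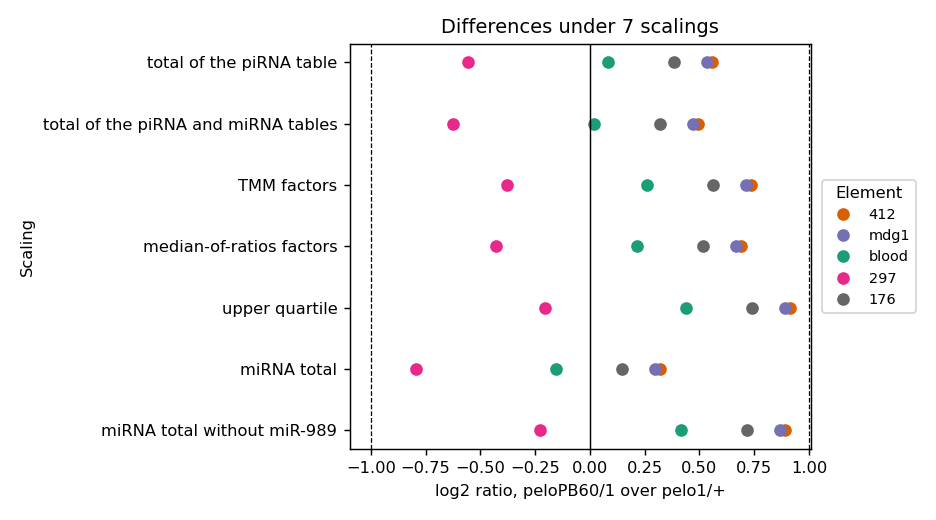
Log2 ratio of peloPB60/1 over pelo1/+ (horizontal axis) of each element under 7 scalings (rows), with dashed lines at 2-fold. 297 lies below 0 and 412, mdg1 and 176 above 0 in each row, while blood moves to -0.15 with the miRNA total.

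The piRNAs of related elements were then listed. Of 8 named members of the mdg1 lineage 6 had a feature, and all 6 had a log2 ratio above 0, with 0 called at 2-fold and 4 higher by at least 0.32 on the log2 scale (4 of 6 above 0 with the miRNA total, and 1 called with upper quartiles). With the piRNA total 55 of the 94 abundant features were above 0, and 164 of all 438 tested features were. Higher by at least 0.32 were 31.9% of the 94 and 15.3% of the 438. With the miRNA total the median of the 438 was -0.45, and with upper quartiles 33 of them were called higher and 36 lower. Neither was counted for the 94. 412, mdg1 and blood are themselves 3 of the 6. The median of the 6 was 0.44. Stalker2, at 3692 CPM in peloPB60/1 and 2140 CPM in pelo1/+, had 0.79, Stalker had 0.33 and Stalker4 had 0.19. blood was the lowest of the 6. Of 13 named members of the gypsy lineage, 176 placed among them, 12 had a feature. Of these, 8 were above 0 and 4 below, with 0 called at 2-fold and a median of 0.30 (6 above and 6 below with the miRNA total, and 4 called higher with upper quartiles). Without 176 there were 7 above and 4 below, with a median of 0.21. 297 was the lowest of the 12. A feature whose name runs several elements together, TART-CTART-ATART-BTirant, was not counted as Tirant. It had 351 reads in peloPB60/1 and 4646 in pelo1/+, a log2 ratio of -3.62 and thus called lower, and which element its reads came from is not known. Stalker3T, with 0.52, was not counted as Stalker3. rover, at 15116 CPM in peloPB60/1 and 8867 CPM in pelo1/+, had 0.77, gypsy5 had 0.65 and Tabor 0.52, while opus had -0.09. 297 was thus lower than the other listed elements of its lineage that had a feature of their own name, as a description of these 2 libraries.

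**Figure D5:**
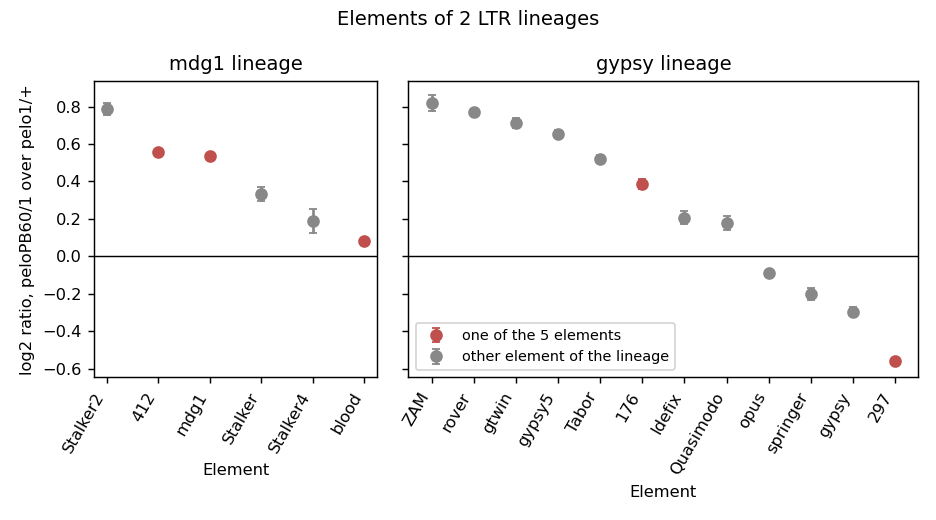
Log2 ratio of peloPB60/1 over pelo1/+ (vertical axis) for listed elements of the mdg1 lineage (left) and the gypsy lineage (right, 176 placed there), with 95% intervals of counting error and the 5 elements in red. The 6 elements at left are all above 0 (4 with the miRNA total), and 297 is the lowest of the 12 shown at right, at -0.56.

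Elements of the 2 compartments taken alone gave the frame for elements of both. Of 8 elements mainly silenced in follicle cells, 7 were above 0 and 1 below, with 0 called at 2-fold, 5 higher by at least 0.32 on the log2 scale and a median of 0.46 (5 above 0 with the miRNA total, and 3 called higher with upper quartiles). All of the 8 but gypsy10 are also in the gypsy lineage list above, so the counts of these lists are not separate observations. gtwin had 0.71 and gypsy -0.29. For this list and the germline list below, the background with the piRNA total is the 94 abundant features. Of these, 55 were above 0, 30 higher by at least 0.32 and 23 lower. With the miRNA total the median of all 438 tested features was -0.45, and with upper quartiles 33 of them were called higher and 36 lower. Of 10 LTR elements that are silenced mostly in germ cells, 8 had positive and 2 had negative values, with 0 called at 2-fold, 1 higher and 2 lower by at least 0.32, and a median of 0.11 (3 above 0 with the miRNA total, median -0.13). Max-element and GATE had 0.15 and 0.30, and roo and mdg3 had -0.58 and -0.45. HMS-Beagle, named after its value was seen, had 0.63. The ranges of both lists overlapped, from -0.29 to 0.82 for follicle cell elements and from -0.58 to 0.63 for germline elements. 412, mdg1, blood and 176 lay within both ranges and 297 within that of the germline list. No difference between the lists was tested.

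In whole ovaries fewer cells of a type and less RNA per cell cannot be told apart, and the miRNA tables show that markers of the cell types moved as well. The 3 follicle cell miRNAs summed to 459037 CPM of the miRNA table in peloPB60/1 and 268603 CPM in pelo1/+. Of these, miR-989 was at 443523 and 173893 CPM, miR-318 at 8912 and 9252 CPM and miR-994 at 6602 and 85458 CPM. The higher sum thus came from miR-989 alone. The 3 germline miRNAs summed to 55025 CPM in peloPB60/1 and 63899 CPM in pelo1/+. Of these, bantam was at 4873 and 18738 CPM, miR-184 at 37246 and 32758 CPM and miR-7 at 12905 and 12403 CPM, so the lower sum came from bantam alone. The larger share of miR-989 in peloPB60/1 lowers the CPM of every other miRNA there. Marker levels were not computed without miR-989, so the direction of the germline sum is given for the whole miRNA total alone. Of the 2 muscle miRNAs, miR-1 was at 6899 CPM in peloPB60/1 and 2218 CPM in pelo1/+, and miR-133 had 12 reads in each. The 6 testis-cluster miRNAs summed to 361 and 306 CPM. None of these 14 markers was at 0 in either library. Their part in the differences of the 5 elements was not tested.

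Some features hold other parts of the same elements. DM412_I and DM412_LTR, named for the internal part and the LTR of 412, had 18 and 34 reads in peloPB60/1 and 19 and 24 in pelo1/+. Their log2 ratios were 0.03 (-0.99 to 1.03) and 0.60 (-0.19 to 1.42). BLOOD_I had 135 reads in peloPB60/1 and 137 in pelo1/+, a log2 ratio of 0.08 (-0.27 to 0.43), which is the value of blood itself. These features held under 1% of the reads of their element, so adding them could hardly move the log2 ratios of 412 and blood, which stayed at 0.56 and 0.08. DM412B_LTR, an LTR feature of a 412 variant named here after its values were seen, went the other way from 412, with 71 reads in peloPB60/1 and 227 in pelo1/+, 2.96-fold lower (log2 ratio -1.57, -1.98 to -1.18). No such feature was found for mdg1, 297 or 176. How reads that match several related elements were shared out is not given in the sources used here, so single values of related elements are uncertain.

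Levels of different elements can be compared only per length, and lengths came from annotated insertions of the reference strain (Ensembl annotation of BDGP6, a later build than the BDGP5 of the submitters' processing notes, so no coordinates are given). An insertion of 6500 to 8000 bp was taken as near full length. 412 had 44 annotated insertions, of which 32 were near full length with a median of 7503 bp. mdg1 had 45, of which 20 were near full length (7367 bp). blood had 29, of which 26 were near full length. 297 had the most, 89, of which 24 were near full length (6995 bp) and 59 were shorter. The annotation held no element of the exact name 176. Since it is not known what element this name stands for, its insertions were not counted. Insertions overlapped a protein-coding gene in 27 cases for 412, 25 for mdg1, 13 for blood and 47 for 297. Most of these lay in introns alone, 19 for 412, 23 for mdg1, 11 for blood and 39 for 297, while 8, 2, 2 and 8 touched an exon.

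Per kilobase of a near full-length copy, 412 had 2842 CPM in peloPB60/1 and 1930 CPM in pelo1/+. blood had 2183 and 2061 CPM per kilobase, mdg1 had 1706 and 1177, and 297 had 1412 and 2079. In peloPB60/1 the order per length was 412, blood, mdg1 and 297. In pelo1/+ it was 297, blood, 412 and mdg1, and the counting intervals of 297 (2064 to 2094) and blood (2047 to 2075) overlapped. 297 thus had the highest level per length of the 4 in pelo1/+, not separated from blood, and the lowest in peloPB60/1.

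Features with differences most like those of each element were taken from 85 other features with at least 10000 summed counts and no tag of another species. Likeness here is the distance between log2 ratios over 2 libraries and carries no more than that. copia, an LTR element of another superfamily, and Tabor were nearest to both 412 and mdg1, with 0.54 and 0.52. Doc2-element and TART, a telomeric element, were nearest to blood, with 0.06 and 0.10. accord2 and BS were nearest to 297, with -0.57 and -0.55. gypsy10 and HMS-Beagle2 were nearest to 176, with 0.39 and 0.40.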

How the data were processed

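Each library came with a piRNA table and a miRNA table of raw counts, which the authors deposited as whole numbers of reads per feature with no normalization and no header. The submitters' processing notes name Bowtie 0.12.7 and, as the genome build, BDGP5. Their roles, the repeat reference, strand and the handling of reads with several matches were not given in the sources used here. A feature listed in 1 library was given 0 counts in the other. Genotypes came from the genotype labels. The tables do not measure pelo itself.

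CPM were counts over the total of their own table, so they refer to 1 class of reads rather than the whole library. Log2 ratios used 0.5 added counts. Their 95% intervals were exact conditional (Clopper-Pearson) intervals of the counts, and intervals of shares were Wilson intervals. With 1 library per genotype no p-value was computed. A feature with at least 50 summed counts was called when it differed at least 2-fold with an interval that excluded no difference. TMM factors came from edgeR 4.0.16 and median-of-ratios factors from DESeq2 1.42.0, for scaling only, in R 4.3.3. Other steps used Python 3.11.15 and scipy 1.17.1. The computation was tested on simulated counts with counting error alone, which checks the code and not the spread between libraries.

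The 5 elements, the lists of related elements and the markers were chosen with earlier results of these data known. Stalker3, pilger and Tirant had no feature of exactly that name, and Stalker3T and TART-CTART-ATART-BTirant were not taken for them. Text names came from a rule: the 5 elements, features of the same element, the 2 nearest features by log2 ratio, and the most abundant members, up to 4, per list.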

Additional observations from a re-analysis of the deposited data

How the results depend on the processing

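No paired analysis was possible because there is a single library of each genotype. Leaving out a library was impossible too. The order 412, mdg1, blood, 297, 176 is used for the log2 ratios that follow. They were 0.49, 0.47, 0.018, -0.62 and 0.32 scaled to both tables, 0.74, 0.71, 0.26, -0.38 and 0.56 with TMM, and 0.69, 0.67, 0.21, -0.43 and 0.52 with median-of-ratios factors. With upper quartiles they were 0.91, 0.89, 0.44, -0.20 and 0.74, with the miRNA total 0.32, 0.30, -0.15, -0.80 and 0.15, and with the miRNA total without miR-989 0.89, 0.87, 0.42, -0.23 and 0.72. Without the 10 most abundant features in the total, 412, blood and 297 had 0.54, 0.066 and -0.57. The median of the 5 was that of 176 in each of these. The pooled ratio of 1.14 was 1.09, 1.29, 1.252, 1.46, 0.970 and 1.44 in the same order of scalings, 1.13 without the 10 most abundant features and 1.15 without the 5 elements in the total. It was below 1 with the miRNA total alone, whose divisor in peloPB60/1 holds the 443523 CPM of miR-989. At a size of 0.32 on the log2 scale 4 of the 5 were called (3 higher, 1 lower), and 0 at 1.5-fold or 4-fold. At 0.32 the split was 2 higher and 1 lower when both tables formed the divisor, and 0 and 1 when the miRNA total did. It was 4 and 0 with upper quartiles or the miRNA total without miR-989. Shares of all features at that size were counted with the piRNA total alone. The 82 features called in all were 115, 109 and 32 with filters of 1, 10 and 200 counts, 233 at 0.32 on the log2 scale, 161 at 1.5-fold and 19 at 4-fold. Adding DM412B_LTR to 412, chosen after seeing the data, gave 0.55. Of 123 values under alternatives 63 stayed the same and 60 moved. Some alternatives could hardly move a value, such as 1 added count or a total without intervals. The change of sign of blood with the miRNA total was counted as moved. Ratios and the pooled ratio stayed if within the counting interval, and percentages of features below an element if within a Wilson interval. Counts of the 5 elements called had to be equal, and counts of all features called within 1.5 times. Depth does not limit these values, since the scarcest element had 44538 summed counts, and the missing replicates do.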
